A study of Mus musculus with 12 samples.

Results

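The protocadherins are the largest group of cadherin-related adhesion proteins, and 70 of the 54532 genes in the deposited expression table carry a symbol that starts with Pcdh. They were taken by that symbol. Of the 70, 58 belong to the 3 gene clusters on mouse chromosome 18, with 14 genes of the Pcdha cluster, 22 of Pcdhb and 22 of Pcdhg. The other 12 are single genes: Pcdh1, Pcdh7, Pcdh8, Pcdh9, Pcdh10, Pcdh11x, Pcdh12, Pcdh15, Pcdh17, Pcdh18, Pcdh19 and Pcdh20.

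RNA of mouse brain tissue was sequenced after photodynamic therapy with 5-aminolevulinic acid (5-ALA), a heme precursor from which cells make a pigment that light activates. The series asks how the transcriptome differs between times after that treatment. There were 3 libraries of untreated controls, titled PBS, and 3 each of brains taken 1.5 h, 12 h and 48 h after light. Treated mice were given 5-ALA at 20 mg/kg, and 30 min later 635 nm laser light at 20 J per square centimetre. All mice were perfused with saline before the tissue was taken. Both BALB/c and C57BL/6 are named as the strain. Age, sex, brain region, hour of collection and whether controls had an injection or light are not stated. Nor do the labels say that each library is a separate animal, so p-values here measure the spread between libraries, which may be technical in part.

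In the clusters, a row of variable exons, each with its own promoter, encodes the extracellular part of the protein. The variable exons of Pcdha and of Pcdhg are spliced to shared constant exons that encode the cytoplasmic end, whereas Pcdhb genes have no such constant exons. A single neuron uses a few of the promoters, in a choice that involves DNA methylation, CTCF and cohesin, and the resulting set of proteins gives its membranes a recognition code by which a neuron tells its own branches from those of others. The C-type members Pcdhac1, Pcdhac2, Pcdhgc3, Pcdhgc4 and Pcdhgc5 lie at the ends of the Pcdha and Pcdhg clusters and are chosen less at random. The single genes lie outside the clusters and each have their own regulation: Pcdh8, known in rat as arcadlin, is induced by neuronal activity, and Pcdh17 and Pcdh10 act in axon growth and synapse formation.

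The deposited values fell on whole steps, from which the reads per gene could be recovered, between 15348579 and 17444654 per library. Levels are in FPKM, fragments scaled to gene length and to a total per library, and all 12 neuron markers were detected in every library (lowest value 2.15 FPKM). The scaling total was not the number of recovered reads. It was 1.215e+07 in 1.5 h replicate 1, against 15709617 recovered reads, and 1.873e+07 in 48 h replicate 1, against 16247614. Replicates 1 and 3 of the 1.5 h group stood apart: 12.4% and 9.14% of their recovered reads were mitochondrial, where the other libraries had 4.16% to 6.14%, and longer genes were read low in them (slope of log2 level on log2 gene length -0.10 and -0.06, against -0.01 to 0.04 elsewhere). Regional markers also varied within groups. The summed level of 9 thalamus markers was 118 FPKM in control replicate 4, against 34.0 and 40.4 FPKM in control replicates 1 and 2, and in 48 h replicate 1 the 9 cortex and hippocampus markers summed to 69.5 FPKM, against 123 and 117 FPKM in 48 h replicates 3 and 4. The summed level of 8 choroid plexus markers spanned 37.7 to 1066 FPKM over the libraries, and 1 of the 3 libraries at 12 h carries a column number that matches no title and is called unnumbered.

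The clusters occupy chromosome 18 positions 36930184 to 37187661 (Pcdha), 37264938 to 37524479 (Pcdhb) and 37661793 to 37841873 (Pcdhg) on build GRCm38, all on the plus strand. Single genes were read more deeply than clustered ones. A tested clustered member had a median of 73 recovered reads per library (6 to 2452), and a tested single gene 688 (24 to 4577). A gene was tested where it passed 0.5 FPKM in at least 3 of the 12 libraries, which 60 of the 70 did: 9 of 14 Pcdha, 21 of 22 Pcdhb, 19 of 22 Pcdhg and 11 of 12 single genes. No member passed through the libraries of 1 group alone. The 10 that did not pass were Pcdha1, Pcdha4, Pcdha6, Pcdha8, a second row named Pcdha11 (ENSMUSG00000102206), Pcdhb1, Pcdhga10, Pcdhga11, Pcdhgb5 and Pcdh12, an endothelial protocadherin. Pcdh12 was at 0.265, 0.171 and 0.132 FPKM at 48 h, against 0.0191, 0.0655 and 0.0661 FPKM in controls, on 107 reads over all 12 libraries.

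How reads were assigned matters for levels. Genes with no exon base of their own on either strand had no reads as a rule, namely 1203 of 1265, which points to bases shared by several genes counting for none of them. The Pcdha and Pcdhg members all share their constant exons and were then read mostly on their variable exon, while their FPKM was divided by the full gene length. Pcdhga10, whose variable exon lies wholly under an antisense transcript, had at most 0.0524 FPKM, and Pcdha4, with 404 unshared bases, at most 0.0555 FPKM. A level near 0 in these 2 genes is thus no statement about their transcripts. Reads that fit several related members equally well were a further limit for the clusters, since how the aligner placed them is not given in the sources used here.

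With levels taken per unshared kilobase in the control libraries, Pcdh1 led the family at 27.0, followed by the C-type Pcdhgc5 at 25.5, Pcdh9 at 18.6, Pcdh7 at 14.2, Pcdhac2 at 14.03, Pcdhgc3 at 12.5, Pcdh10 at 12.25 and Pcdh8 at 8.87. These are means in FPKM units rescaled to the unshared bases. The highest clustered members outside the C-types were Pcdhga4 at 7.55, Pcdhb9 at 4.90 and Pcdha12 at 4.85. Thus 3 of the 5 C-types stood with the abundant single genes, and the other clustered members stood lower. In control libraries the C-types held 53.2% ± 1.21 of the summed FPKM of Pcdha and 50.1% ± 1.50 of that of Pcdhg (SD, n = 3).

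At 12 h after PDT the clustered protocadherins were lower than in controls across all 3 clusters. Of the 49 clustered members tested, 19 fell and 0 rose at a false discovery rate (FDR) of 0.05 by limma with Benjamini-Hochberg adjustment over 17664 genes. Among all genes tested, 7.90% fell and 13.3% rose in this comparison, so the clustered members' share that fell is the larger and their share that rose the smaller. The 19 were 2 of 9 Pcdha, 10 of 21 Pcdhb and 7 of 19 Pcdhg members. The log2 change was negative in 47 of the 49, with a median of -0.43, against 49.9% negative and a median of 0.00 over all genes tested. The 12 h libraries all lay below the control libraries for 37 of the 49 and all above for 1, Pcdhgc3, where over all genes 26.2% lay below and 28.2% above.

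The 25 clustered members outside the C-types that did not pass had log2 changes between -0.55 and -0.06. Of the members too low to test, Pcdha1 was at 0.0836 ± 0.0146 FPKM at 12 h and 0.271 ± 0.0253 FPKM in controls, and Pcdha6 at 0.186 ± 0.0245 FPKM at 12 h and 0.387 ± 0.149 FPKM in controls. The sums per cluster include them and show the size in FPKM. Summed over its 22 genes, Pcdhb was at 21.1, 20.6 and 19.2 FPKM in the 12 h libraries, against 37.8, 40.2 and 35.7 FPKM in controls. The 12 h mean of 20.3 ± 0.953 FPKM was 53.6% of the control mean of 37.9 ± 2.24 FPKM (SD, n = 3 each), with no overlap. The Pcdhg sum was 31.2 ± 4.33 FPKM at 12 h and 44.4 ± 2.53 FPKM in controls, and the Pcdha sum 11.8 ± 0.410 FPKM at 12 h and 14.9 ± 1.66 FPKM in controls. Both of these sums were also lower in every 12 h library than in any control library. The 53 clustered genes other than C-types summed to 38.4, 35.0 and 35.1 FPKM at 12 h, against 67.6, 70.9 and 62.6 FPKM in controls, a 12 h mean of 53.9% of control. The 12 single genes summed to 112.9 ± 9.75 FPKM at 12 h and 93.8 ± 6.50 FPKM in controls, and here the 12 h libraries (103.6 to 123 FPKM) were all above the controls (86.4 to 98.6 FPKM). That gap rested on Pcdh8. The 11 single genes without it summed to 88.8 ± 3.03 FPKM at 12 h and 85.7 ± 4.86 FPKM in controls. Those libraries overlapped, at 86.8 to 92.3 FPKM and 80.4 to 89.9 FPKM.

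**Figure D1:**
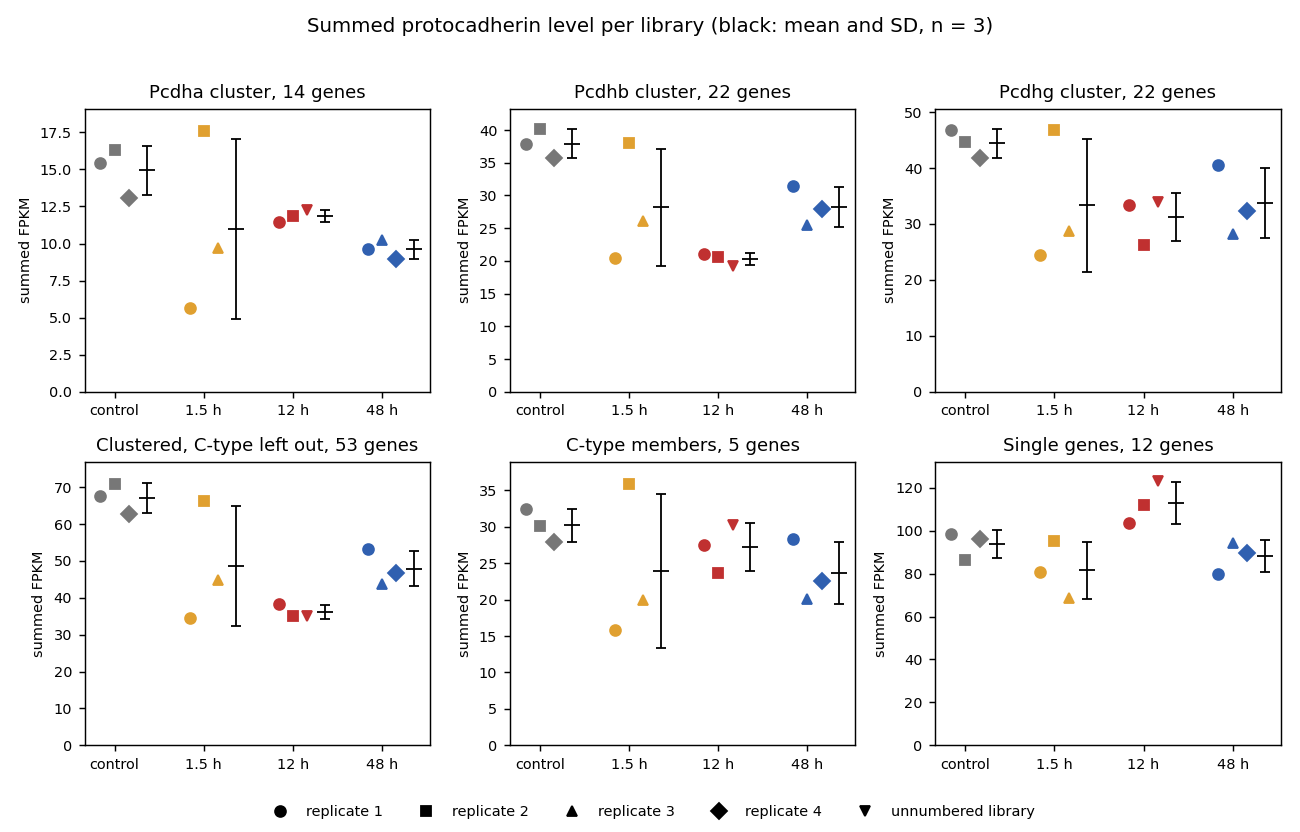
Summed FPKM per library of the Pcdha, Pcdhb and Pcdhg clusters, of clustered genes without the C-types, of the C-types and of the single genes, for control, 1.5 h, 12 h and 48 h; coloured points are libraries and black marks are the mean and SD of 3. The 12 h points of the Pcdhb panel lie between 19.2 and 21.1, below all 3 controls at 35.7 to 40.2, and the 1.5 h points are spread from near the controls down to 20.4.

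Within Pcdhb, Pcdhb9 gave the lowest p. It had 2.35, 1.72 and 2.47 FPKM at 12 h, against 4.80, 5.23 and 4.66 FPKM in controls, on 85 to 120 reads at 12 h and 249 to 282 in controls. All 12 h libraries were below all controls, and Pcdhb9 fell by 0.90 ± 0.13 on the log2(FPKM + 1) scale (SE, limma adjusted p = 0.000755). That scale understates the change of low genes, and the 12 h mean of Pcdhb9 was 44.5% of its control mean. Pcdhb12 had 0.197, 0.367 and 0.186 FPKM at 12 h, against 0.971, 1.03 and 0.829 FPKM in controls, and fell by 0.64 ± 0.13 (SE, limma adjusted p = 0.00442). Its 12 h mean, resting on 9, 18 and 9 reads, was 26.6% of the control mean, the lowest such share among the tested clustered members. Pcdhb12 shares 1927 bases with Gm37446, which leaves 1107 of its own. Pcdhb8 was at 40.0% of its control mean and also fell (log2 change -0.69, limma adjusted p = 0.0075). The other 7 that fell were Pcdhb3, Pcdhb7, Pcdhb11, Pcdhb13, Pcdhb17, Pcdhb19 and Pcdhb20, at 42.2% to 56.9% of control. Pcdhb17 and Pcdhb20 have, after Pcdhb9, the highest mean FPKM of the cluster, at 2.16 ± 0.199 and 1.96 ± 0.0844 FPKM at 12 h, against 3.79 ± 0.417 and 3.57 ± 0.242 FPKM in controls. Leaving out any 1 control or 12 h library kept the calls of Pcdhb9, Pcdhb12 and Pcdhb8. That of Pcdhb13 was lost without control replicate 2 or 12 h replicate 2, that of Pcdhb17 without control replicate 1, control replicate 2 or the unnumbered library, and those of Pcdhb7 and Pcdhb20 in each such fit. Pcdhb10, also among the higher ones, did not pass: 1.53 ± 0.304 FPKM at 12 h and 2.09 ± 0.523 FPKM in controls, with overlapping libraries and a limma adjusted p of 0.221.

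Within Pcdhg, Pcdhga5 had 0.855, 0.837 and 0.983 FPKM at 12 h, against 2.15, 2.14 and 1.84 FPKM in controls. The groups did not overlap, and Pcdhga5 fell by 0.69 ± 0.11 on the log2 scale (SE, limma adjusted p = 0.00132). Pcdhga7 fell by 0.64, with 0.969 ± 0.211 FPKM at 12 h and 2.07 ± 0.183 FPKM in controls (limma adjusted p = 0.00573). Pcdhga3 fell by 0.63, with 0.596 ± 0.176 FPKM at 12 h and 1.47 ± 0.171 FPKM in controls (limma adjusted p = 0.0107). The calls of Pcdhga5 and Pcdhga7 held without any 1 control or 12 h library. That of Pcdhga3 was lost without 12 h replicate 2, and that of Pcdhga4 without 12 h replicate 2 or control replicate 1. Pcdhga4, Pcdhga6, Pcdhga9 and Pcdhga12 complete the 7. All 7 are of the A subfamily of Pcdhg, which has 10 tested members with a median log2 change of -0.57, while the 6 tested B members had 0 calls by limma (0 at an unadjusted p under 0.05, 0 by voom), a median of -0.19 and values between -0.26 and -0.06. In summed FPKM the 12 A genes were at 51.1% of control at 12 h and the 7 B genes at 74.0%. The split by subfamily was made after the values were seen, and the difference between subfamilies was not tested.

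Within Pcdha the 2 that fell were Pcdha9 and Pcdha2. Pcdha9 had 0.435, 0.301 and 0.247 FPKM at 12 h, against 0.811, 0.838 and 0.792 FPKM in controls. Its groups did not overlap, and the log2 change was -0.45 ± 0.13 (SE, limma adjusted p = 0.0317). Pcdha2 had 0.226 ± 0.0611 FPKM at 12 h and 0.669 ± 0.165 FPKM in controls (log2 change -0.44, limma adjusted p = 0.0393). Pcdha5 was near the threshold, with 0.447 ± 0.0711 FPKM at 12 h and 0.915 ± 0.0575 FPKM in controls (limma adjusted p = 0.0572). Pcdha12 and the tested Pcdha11 row (ENSMUSG00000007440) were at 63.0% and 38.8% of their control means without passing. In fits that left out 1 library, Pcdha9 kept its call only without 12 h replicate 1 and Pcdha2 only without control replicate 4 (limma adjusted p otherwise 0.0688 to 0.136).

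**Figure D2:**
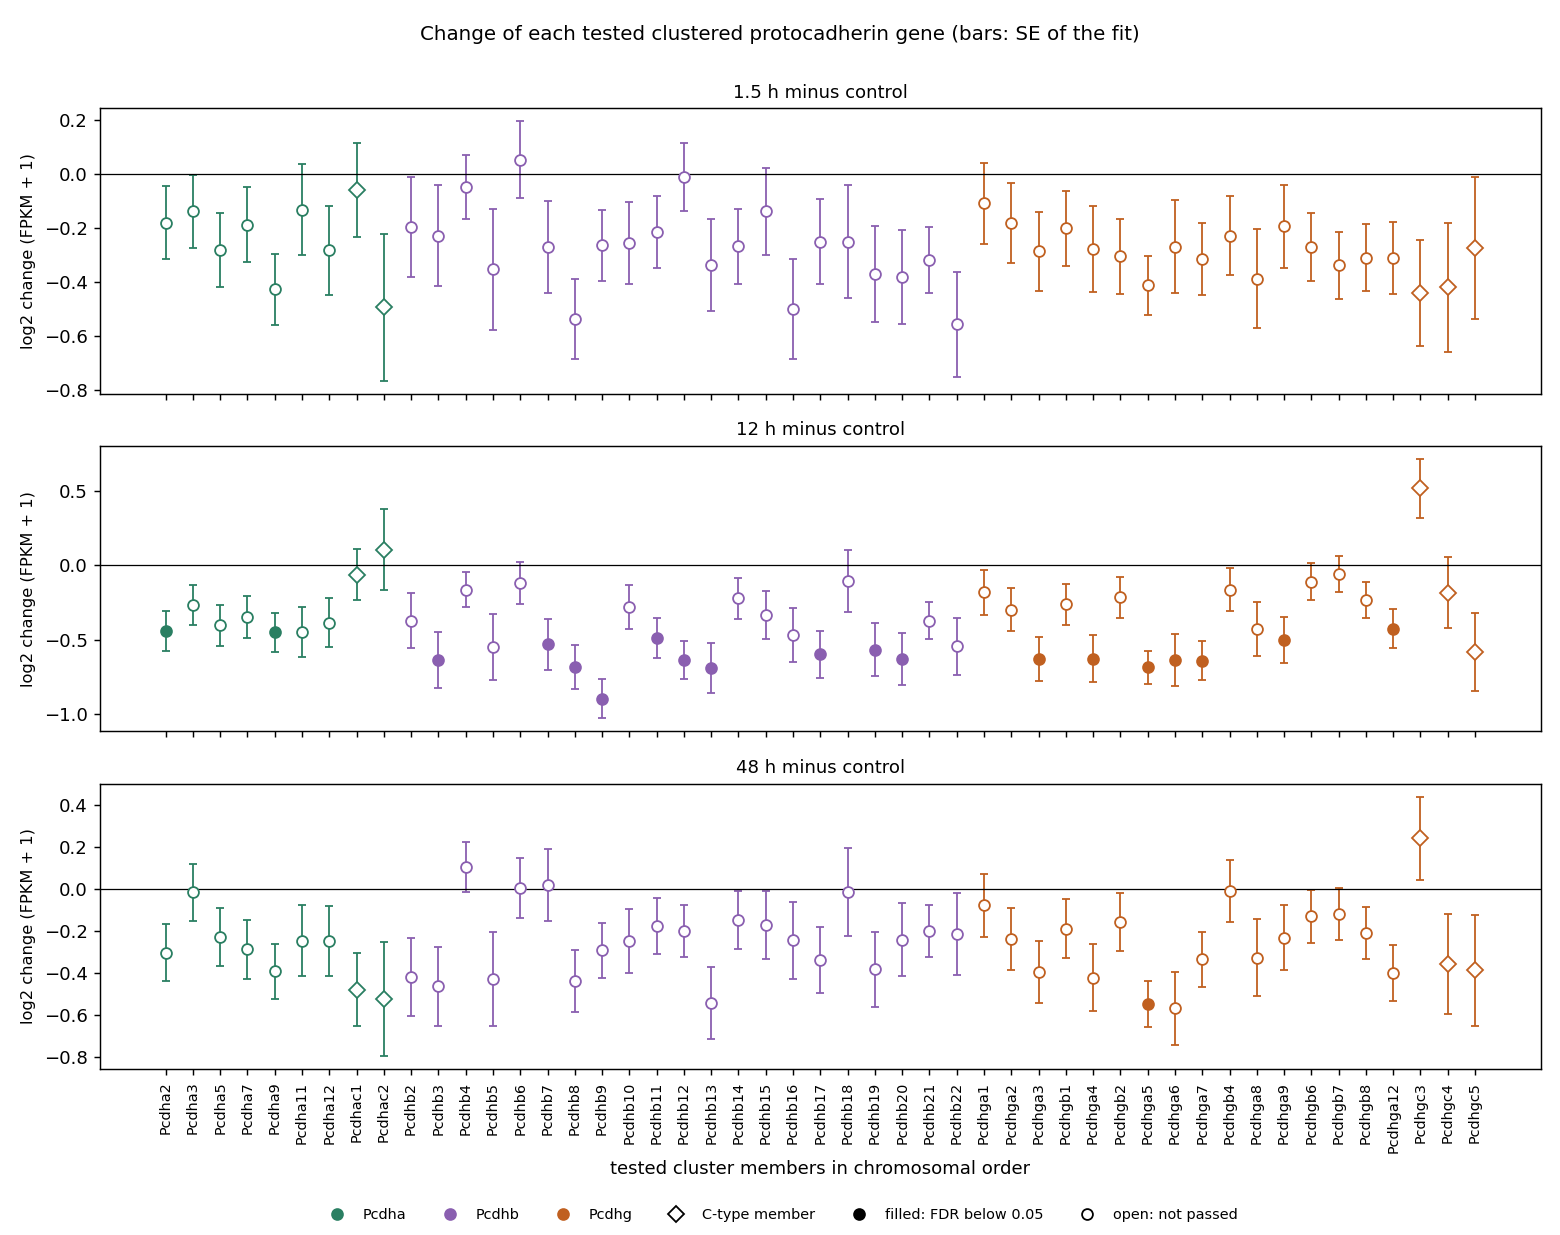
Log2 change of each tested clustered gene, in chromosomal order along the horizontal axis, for 1.5 h, 12 h and 48 h minus control; bars are the SE of the fit, filled symbols passed FDR 0.05 and diamonds are C-types. In the 12 h panel the filled symbols are all below 0, the lowest being Pcdhb9 at -0.90, and Pcdhgc3 is the highest at 0.52; the vertical scale differs between panels.

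The 5 C-types had 0 calls at 12 h by limma in either direction (2 at an unadjusted p under 0.05, 0 by voom), at a median log2 change of -0.06 and with 3 negative. All 44 other tested clustered members had a negative log2 change, with a median of -0.44, and 19 of them fell. With both deviating 1.5 h libraries left out, Pcdhgc3 rose and Pcdhgc5 fell (limma adjusted p = 0.025 and 0.0422). The difference between C-types and other members was not tested. Pcdhac2, which directs the spacing of serotonin axons, had 7.14, 7.90 and 8.46 FPKM at 12 h, against 7.47, 7.67 and 6.51 FPKM in controls, with overlapping groups (log2 change 0.11 ± 0.27, SE, 95% interval -0.49 to 0.70). Pcdhgc3 had 6.65, 5.75 and 6.67 FPKM at 12 h, against 4.24, 3.87 and 4.29 FPKM in controls, so that every 12 h library was above every control, but its change of 0.52 ± 0.20 missed the threshold (SE, limma adjusted p = 0.0876). Pcdhgc3, whose product binds Axin1 of the Wnt pathway, shares 1559 bases with the neighbouring gene BC037039, which leaves 1821 of its own. Pcdhgc5 pointed down, with 10.9, 7.26 and 12.2 FPKM at 12 h, against 17.3, 15.6 and 13.2 FPKM in controls, and Pcdhgc4, needed for the survival of interneurons, was at 2.26 ± 0.106 FPKM at 12 h and 2.73 ± 0.570 FPKM in controls. Neither passed (limma adjusted p = 0.145 and 0.64). The 95% interval of the log2 change was -1.16 to -0.004 for Pcdhgc5 and -0.71 to 0.34 for Pcdhgc4.

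The share of the cluster sums held by C-types was higher in every 12 h library than in any control. They held 67.7%, 72.3% and 74.8% of the summed Pcdha FPKM at 12 h, against 53.5%, 51.9% and 54.2% in controls. In Pcdhg they held 59.8% ± 2.32 at 12 h and 50.1% ± 1.50 in controls (SD, n = 3 each). Neither share overlapped between the groups. At 48 h the Pcdha share was 50.3% to 53.4% and the Pcdhg share was 55.2% ± 2.48. The Pcdha sum itself was lower at 48 h (64.3% of control) than at 12 h (79.2%). Its C-types Pcdhac2 and Pcdhac1 were then at 65.3% and 33.2% of their control means.

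Markers of other cell types moved at 12 h as well, in a comparison in which 13.3% of all genes rose and 7.90% fell. The 8 oligodendrocyte markers summed to 1928 to 2390 FPKM at 12 h, against 1031 to 1220 FPKM in controls, and 3 of the 8 rose. The 9 astrocyte markers had 3 that rose, and the 10 microglia markers 1 that rose and 4 that fell. The 10 endothelial markers summed to 83.5 to 91.5 FPKM at 12 h, against 46.3 to 56.9 FPKM in controls, with 4 rising and 1 falling. Neuron markers, 0 of 12 of which passed in any comparison, summed to 1333 to 1443 FPKM at 12 h, against 1257 to 1376 FPKM in controls. None of these markers was at 0 in any library, and the part of cell make-up in the protocadherin changes was not tested. In bulk tissue, fewer cells of a type and less RNA per cell cannot be told apart.

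The count of 19 moved with the libraries in the fit. It was 6 without 12 h replicate 2, 7 without control replicate 1, 7 without control replicate 2, 8 without the unnumbered 12 h library, 11 without 12 h replicate 1 and 12 without control replicate 4, all falling, and 30 falling with 1 rising when both deviating 1.5 h libraries were left out of the fit. In the fits without 1 library 3.65% to 4.89% of all genes fell, and without both 1.5 h libraries 16.2% fell and 19.0% rose. In each of these fits 47 of 49 changes were negative and the median stayed between -0.43 and -0.39. Leaving out 1.5 h libraries cannot alter a change of 12 h against control. For the 37 members with all 12 h libraries below all controls, leaving out 1 library cannot change the sign either.

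At 48 h few clustered members had a call. Of the 49 clustered members tested, 1 fell, Pcdhga5, and 0 rose, where 5.01% of all genes fell and 7.50% rose. Pcdhga5 had 1.04, 1.12 and 1.08 FPKM at 48 h, against 2.15, 2.14 and 1.84 FPKM in controls, without overlap (log2 change -0.55 ± 0.11, SE, limma adjusted p = 0.00801). Log2 changes were negative in 45 of the 49, with a median of -0.25 (50.3% negative and a median of 0.00 over all genes). For 27 of the 49, all 48 h libraries lay below all controls and for 0 above, against 22.0% and 21.1% of all genes. The Pcdhb sum was 28.3 ± 3.06 FPKM at 48 h, or 74.7% of control, the Pcdhg sum 33.7 ± 6.25 FPKM, or 75.9%, and the Pcdha sum 9.60 ± 0.619 FPKM, or 64.3%. With the 2 deviating 1.5 h libraries left out of the fit, 14 of the 49 fell, where 12.6% of all genes fell and 13.9% rose.

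Set against 12 h directly, 3 Pcdhb genes rose at 48 h and 0 clustered genes fell, where 5.88% of all genes rose and 9.73% fell. Pcdhb9 had 4.04, 3.43 and 3.99 FPKM at 48 h, against 2.35, 1.72 and 2.47 FPKM at 12 h (log2 change 0.61 ± 0.13, SE, limma adjusted p = 0.00993). Pcdhb12 was at 0.691 ± 0.056 FPKM at 48 h and 0.250 ± 0.102 FPKM at 12 h, and Pcdhb7 at 1.84 ± 0.242 FPKM at 48 h and 0.941 ± 0.112 FPKM at 12 h (limma adjusted p = 0.0363 and 0.0498). All 3 genes had fallen at 12 h, and their 48 h libraries were all above their 12 h libraries. Of the 3, only the call of Pcdhb9 held when any 1 of the 12 h or 48 h libraries was left out, so that the count was 1 in each such fit. Across the 21 tested Pcdhb members, 12 had all 48 h libraries above all 12 h libraries and 0 below, where 21.4% and 22.2% of all genes did. Of the markers, 5 of 8 for oligodendrocytes fell at 48 h against 12 h (median log2 change -1.11) and 10 of 10 for microglia rose (median 1.60), and their part in these values was not tested.

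Both C-types of Pcdha were lower at 48 h than at 12 h in every library. Pcdhac2 was at 4.71, 5.06 and 4.37 FPKM at 48 h, below all 12 h libraries (7.14 to 8.46 FPKM) and all controls (6.51 to 7.67 FPKM). Pcdhac1 was at 0.414, 0.161 and 0.147 FPKM at 48 h, also below all 12 h libraries (0.589 to 0.695 FPKM) and all controls (0.591 to 0.799 FPKM). These were the only 2 clustered members with all 48 h libraries below all 12 h libraries. Neither passed in limma (adjusted p for 48 h against 12 h 0.145 for Pcdhac2 and 0.132 for Pcdhac1), whereas limma's voom on recovered reads called Pcdhac1 for 48 h against 12 h and against control (adjusted p = 0.0459 and 0.0314). With the 2 deviating 1.5 h libraries left out, 2 clustered genes fell in this comparison and 5 rose, where 16.6% of all genes fell and 14.0% rose.

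At 48 h the 10 microglia markers summed to 468.5 to 531.9 FPKM, against 136.3 to 144.4 FPKM in controls, and 8 of the 10 rose. None was at 0. Of 9 striatum markers 3 fell and 0 rose at 48 h, where 5.01% of all genes fell and 7.50% rose. Their sum was 140 to 320 FPKM at 48 h and 242 to 520 FPKM in controls, with overlap. Of the other regional markers, 1 of 9 for cortex and hippocampus fell, 0 of 9 for thalamus passed, and of 6 for cerebellum 1 rose and 1 fell. Of 9 astrocyte markers 4 rose and 1 fell. The part of these markers in the protocadherin values was not tested. Neuron markers summed to 935 FPKM in 48 h replicate 1 and to 1345 and 1322 FPKM in replicates 3 and 4.

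At 1.5 h no protocadherin passed the threshold: 0 of 49 clustered and 0 of 11 single genes, where 0.555% of all genes had a call, 0.136% falling and 0.419% rising. At an unadjusted p under 0.05 there were 12 and 5, but the share of all genes at that threshold is not given here. The 0.555% is for the adjusted threshold and cannot be set beside them. Limma's voom on recovered reads also called 0 and 0. The log2 change was negative in 48 of the 49 clustered members, with a median of -0.27, but the libraries were spread. All 1.5 h libraries lay below all controls for 10 clustered and 3 single genes and above for 0, where 12.0% and 14.6% of all genes did. The Pcdhb sum was 20.4, 38.0 and 26.2 FPKM in 1.5 h replicates 1, 2 and 3, against 35.7 to 40.2 FPKM in controls, so that replicate 2 lay among the controls while the 2 libraries with high mitochondrial content and low reading of long genes lay below. Without replicate 2, 30 clustered and 8 single genes fell and 1 single gene rose, where 19.8% of all genes fell and 25.8% rose in that fit. Without replicates 1 and 3 the 1.5 h group is 1 library, and the median of the 49 was 0.02 with 22 negative. The part of RNA quality in the 1.5 h values was not tested.

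**Figure D3:**
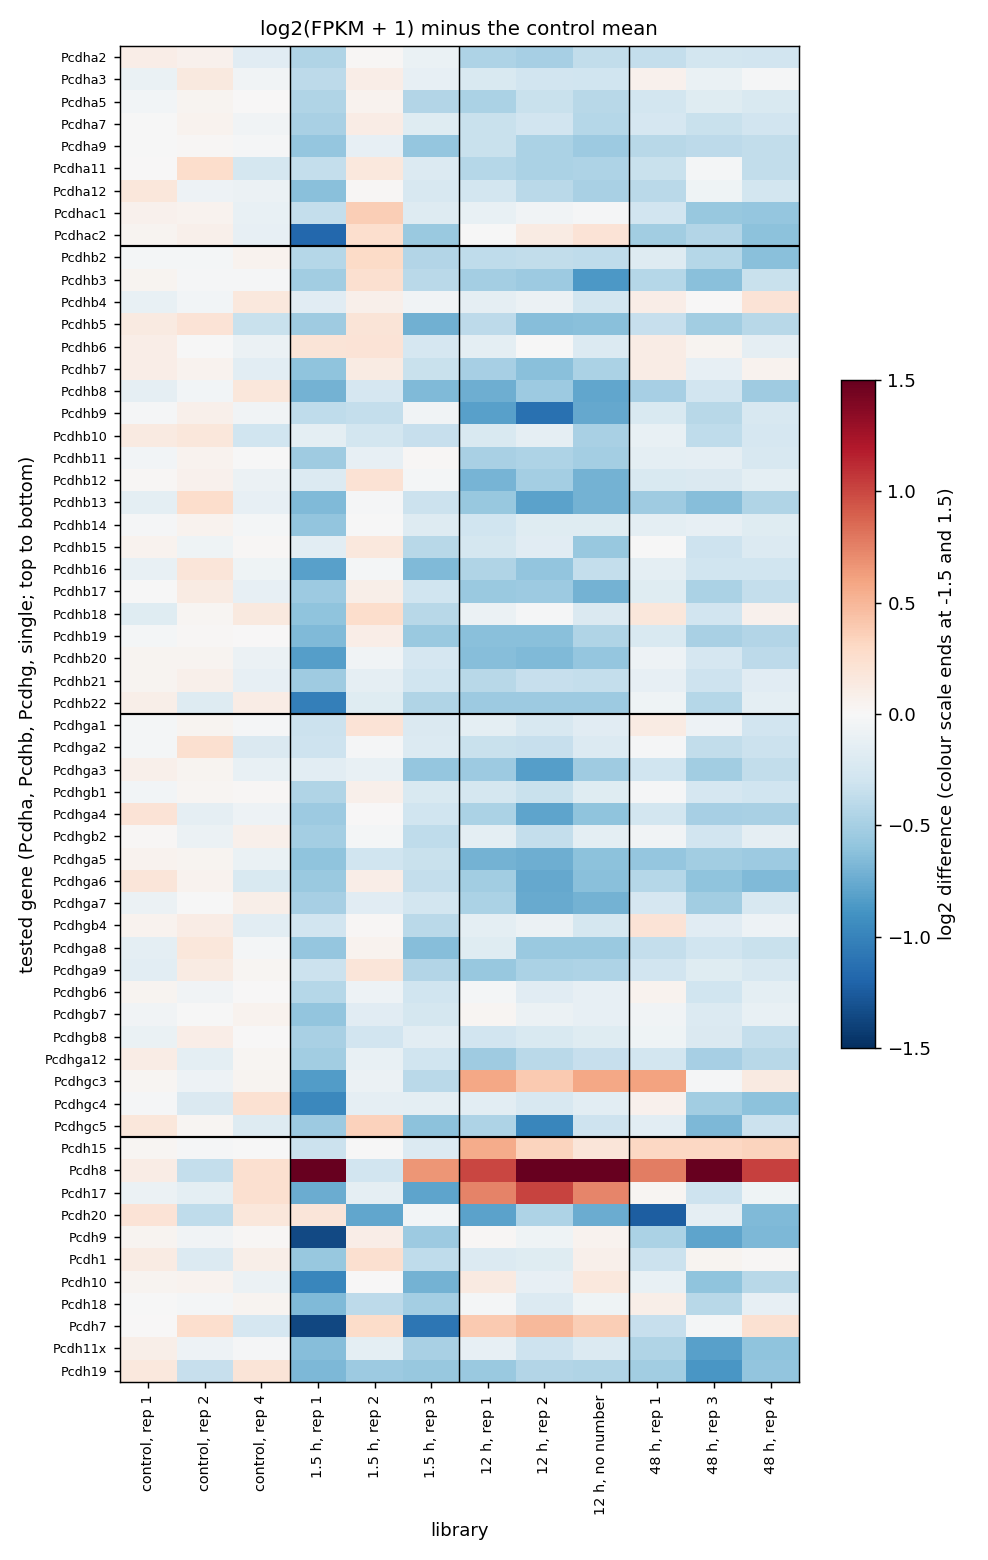
Log2(FPKM + 1) of each of the 60 tested protocadherins in each library minus the control mean of that gene, with clusters and single genes from top to bottom and libraries from left to right. The 12 h columns are blue across most of the clusters, with Pcdhgc3, Pcdh17 and Pcdh8 red, while at 1.5 h replicates 1 and 3 are blue for most members and replicate 2 is closer to the controls.

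Among single genes the pattern was mixed. At 12 h, 1 of 11 rose, Pcdh17, and 1 fell, Pcdh19, with a median log2 change of 0.00 (13.3% of all genes rose and 7.90% fell). For 4 of the 11 all 12 h libraries lay above all controls (Pcdh7, Pcdh8, Pcdh15 and Pcdh17) and for 4 below (Pcdh11x, Pcdh18, Pcdh19 and Pcdh20), where 28.2% and 26.2% of all genes did.

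Pcdh17, on chromosome 14, acts at synapses of the circuits between cortex and basal ganglia. Its FPKM was 8.08, 9.94 and 8.02 at 12 h, against 4.10, 3.90 and 5.44 in controls. All 12 h libraries were above all others of the series, and Pcdh17 rose by 0.83 ± 0.19 on the log2 scale, to 193.8% of control (SE, limma adjusted p = 0.00967). At 48 h it was at 4.55, 3.40 and 4.19 FPKM, where the lowest control had 3.90 FPKM, and against 12 h it fell by 0.94 ± 0.19 (SE, limma adjusted p = 0.00639). The rise at 12 h held in each of the 16 alternative fits, with limma adjusted p between 0.012 and 0.046 when 1 control or 12 h library was left out. At 1.5 h it was at 2.24, 3.94 and 2.15 FPKM, without a call.

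Pcdh8, or arcadlin, is made by active neurons and, in rat, takes N-cadherin from the synaptic surface. Its FPKM was 8.63, 5.96 and 9.48 in control replicates 1, 2 and 4, 35.6, 6.28 and 13.1 at 1.5 h, 16.8, 24.7 and 30.7 at 12 h, and 14.1, 26.0 and 17.1 at 48 h. Every 12 h and 48 h library was above every control, while at 1.5 h replicate 2 lay among the controls and replicates 1 and 3 above them. The 12 h mean was 300.1% of control and the 48 h mean 237.7%. Pcdh8 shares 436 bases with Gm9748. In the fit the 12 h change was 1.46 ± 0.48 and just missed the threshold (SE, limma adjusted p = 0.051), and it passed in voom (adjusted p = 0.0399). With the 2 deviating 1.5 h libraries left out, which leaves 1 library at 1.5 h, the change was also 1.46. It did not pass in any fit without 1 control or 12 h library (limma adjusted p 0.0628 to 0.162), nor with the length correction (limma adjusted p = 0.0548). The 48 h change of 1.13 did not pass (limma adjusted p = 0.157), and was also 1.13 with the 2 deviating 1.5 h libraries left out. Nor did it pass in any fit without 1 control or 48 h library (limma adjusted p 0.173 to 0.387).

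The 250 bases before the start of these 2 genes, which had the largest positive changes at 12 h among the single genes, are shown because both genes lie on chromosome 14 and differ in their core promoter letters. They are from RefSeq on GRCm38.p6, printed 5′ to 3′ on the gene's strand, Pcdh8 at chr14:79771313-79771562 (minus) and Pcdh17 at chr14:84443313-84443562 (plus). Capitals mark TATAAA on the printed strand and CCAAT on either strand, which reads ATTGG when it lies on the other.
Pcdh8: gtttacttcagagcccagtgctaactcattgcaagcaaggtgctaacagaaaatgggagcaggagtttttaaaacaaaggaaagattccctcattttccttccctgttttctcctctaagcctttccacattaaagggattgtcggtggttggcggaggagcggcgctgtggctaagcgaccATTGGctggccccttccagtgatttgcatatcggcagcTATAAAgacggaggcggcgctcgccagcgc
Pcdh17: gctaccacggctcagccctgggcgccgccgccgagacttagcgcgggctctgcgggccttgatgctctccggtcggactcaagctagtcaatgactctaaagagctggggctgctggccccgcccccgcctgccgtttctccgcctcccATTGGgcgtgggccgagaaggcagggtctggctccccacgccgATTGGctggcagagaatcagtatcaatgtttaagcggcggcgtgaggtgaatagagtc
In Pcdh8 the TATAAA begins 30 bases before the start and the ATTGG 68 bases before it. Pcdh17 has ATTGG at 101 and 58 bases before the start and lacks the other motif. Searched on either strand, TATAAA occurs in 12.4% and CCAAT in 33.8% of 32851 promoter windows of the same length. The TATAAA share is thus not for the printed strand alone. Of the 9 protocadherins with a sequence in that table, all single genes, 8 held CCAAT and 2, Pcdh8 and Pcdh15, TATAAA. Neither window shown held TGACGTCA, the site named for cAMP response, TGACTCA, the site named for AP-1, or the CArG box of serum response factor on either strand, which 1.55%, 4.46% and 1.47% of all windows hold. A match or its absence describes these letters only.

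Both X-linked members with a call were lower. Pcdh19, mutated in an X-linked epilepsy of girls, had 1.86, 2.12 and 2.09 FPKM at 12 h and 1.94, 1.29 and 1.79 FPKM at 48 h, against 3.70, 2.32 and 3.82 FPKM in controls. Control replicate 2 was closest to the treated libraries, but no treated library reached it. Pcdh19 fell by 0.48 ± 0.15 at 12 h and by 0.67 ± 0.15 at 48 h (SE, limma adjusted p = 0.0454 and 0.0158). The 12 h call was lost without control replicate 1, without control replicate 4 or without any single 12 h library (limma adjusted p 0.0979 to 0.162). The 48 h call was lost without control replicate 1, control replicate 4 or 48 h replicate 3 (limma adjusted p 0.0649 to 0.0765).

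Pcdh11x had 0.765, 0.372 and 0.588 FPKM at 48 h, against 1.58, 1.30 and 1.39 FPKM in controls. Its groups did not overlap, the 48 h mean was 40.4% of control, and Pcdh11x fell by 0.63 ± 0.14 (SE, limma adjusted p = 0.0157). Without control replicate 1 or 48 h replicate 3 the limma adjusted p was 0.0711 and 0.0639. At 12 h it was at 1.09 ± 0.131 FPKM, below all controls but without a call. Pcdh19 and Pcdh11x were the 2 of 11 single genes that fell at 48 h, where 0 rose, and against 12 h only Pcdh17 fell (backgrounds 5.01% and 7.50% falling and rising against control, 9.73% falling against 12 h).

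The remaining single genes had no call between 2 groups by limma, while Pcdh15 and Pcdh18 passed the F test over the 4 groups (limma adjusted p = 0.0142 and 0.0407). Pcdh15, a tip-link protein of hair cells, was at 1.63, 1.25 and 1.01 FPKM at 12 h and 1.21, 1.21 and 1.25 FPKM at 48 h, all above the controls at 0.753 to 0.814 FPKM (limma adjusted p = 0.0606 and 0.121), and its 12 h value passed in voom (adjusted p = 0.0289). Pcdh20 lay between 2.71 and 3.70 FPKM at 12 h, against 4.003 to 6.49 FPKM in controls (limma adjusted p = 0.141). Pcdh7 was at 15.1 ± 0.660 FPKM at 12 h and 11.2 ± 2.14 FPKM in controls. Pcdh9 was at 11.6 ± 1.41 FPKM at 48 h, 62.2% of control, with all 48 h libraries below the controls at 17.9 to 19.1 FPKM, and did not pass (limma adjusted p = 0.158). Its 1.5 h libraries, which share the estimate of spread, were at 6.68, 20.03 and 12.5 FPKM. Pcdh10, which recruits the actin regulator WAVE, was at 12.7 ± 1.40 FPKM at 12 h and 9.21 ± 1.78 FPKM at 48 h, against 12.1 ± 0.708 FPKM in controls. Pcdh1 had 86.5% to 94.0% of its control mean in the 3 treated groups, and Pcdh18, which binds the adaptor Dab1, was lowest at 1.5 h at 0.513 ± 0.141 FPKM, against 1.17 ± 0.0502 FPKM in controls, without a call in that comparison.

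**Figure D4:**
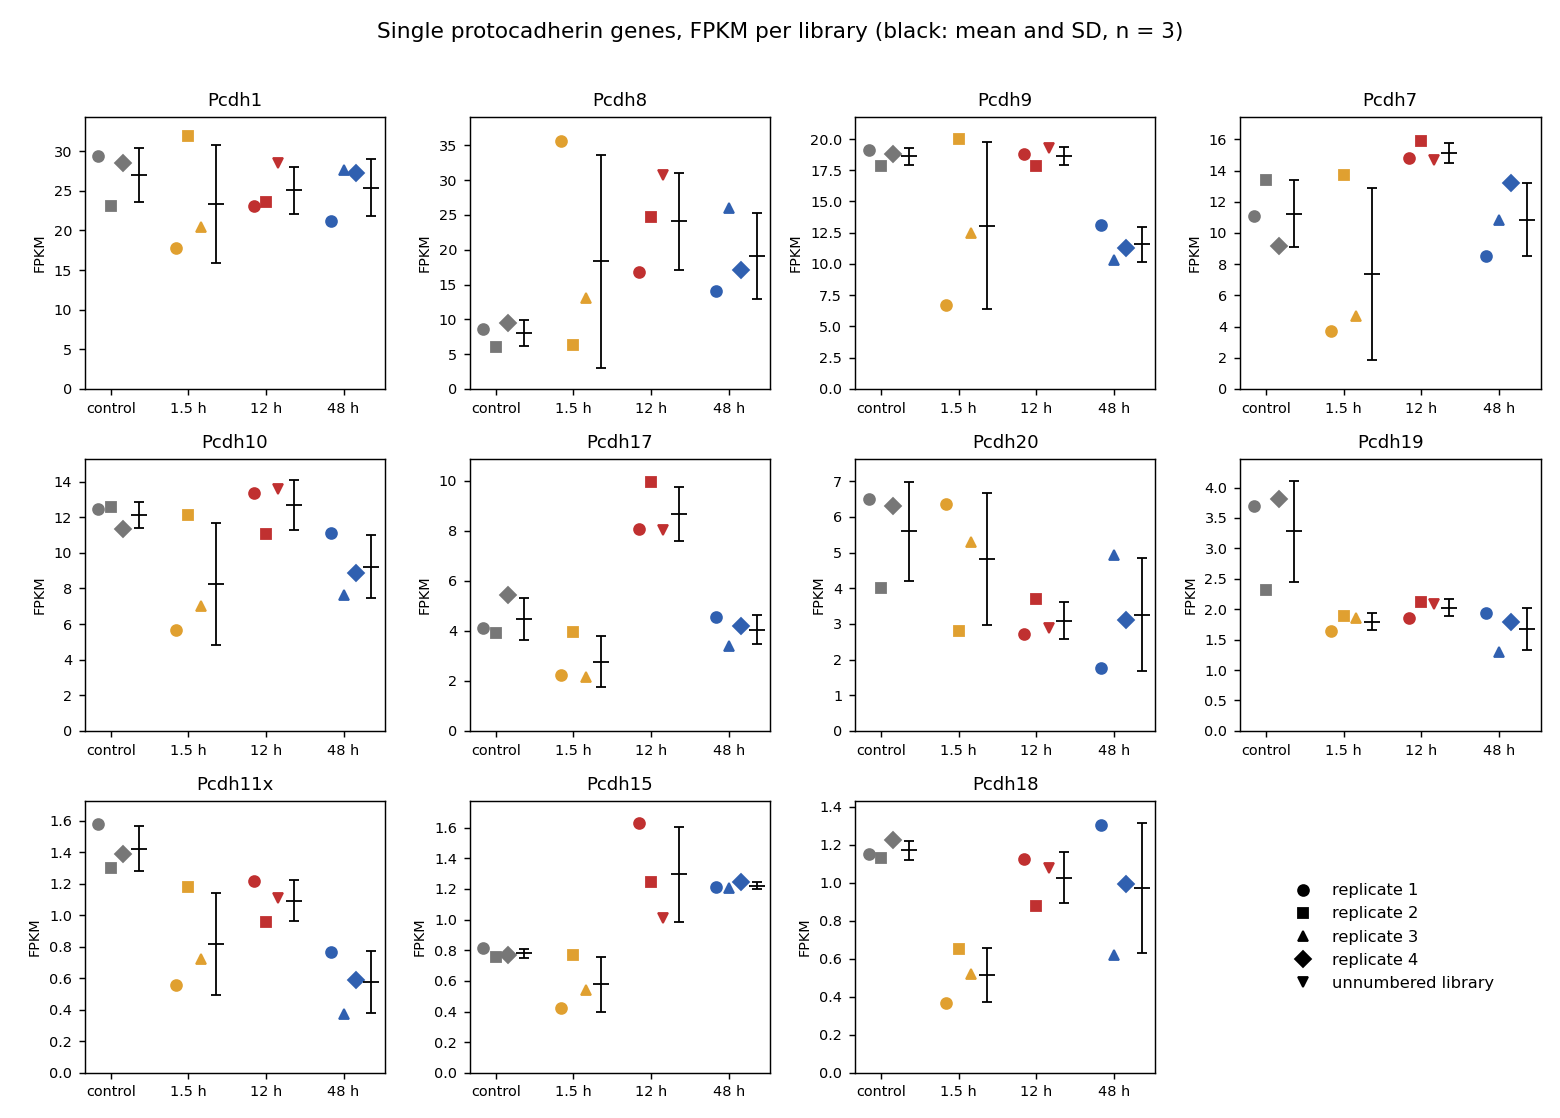
FPKM of the 11 tested single protocadherins in each library for control, 1.5 h, 12 h and 48 h, with the mean and SD of 3 libraries in black; each panel has its own scale from 0. The 12 h points of Pcdh17 (8.02 to 9.94) stand above all its other points, those of Pcdh8 lie between 16.8 and 30.7, and Pcdh11x is lowest at 48 h (0.372 to 0.765).

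Over the 4 groups together, 16 of the 60 tested protocadherins differed by limma's F test with Benjamini-Hochberg adjustment, 11 of 49 clustered and 5 of 11 single, where 38.4% of all genes tested did. The count moved with the libraries in the fit. It was 39 without 1.5 h replicate 2, where 69.9% of all genes differed. Without control replicate 1, 2 or 4, any 12 h library or 48 h replicate 4 it was 7 to 10, where 24.1% to 28.7% of all genes did.

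Genes known to act with the protocadherins were read from 4 lists. Of 20 genes for promoter choice and chromatin looping at the clusters, 19 were tested, and at 12 h 2 rose and 0 fell, where 13.3% of all genes rose and 7.90% fell, so the rising share is near the background. Tet3, an enzyme that oxidises methylated cytosine, was at 18.0 ± 1.83 FPKM at 12 h and 4.95 ± 0.421 FPKM in controls (log2 change 1.67, limma adjusted p = 0.000953), and Rest, a repressor of neuronal genes, at 1.51 ± 0.445 FPKM at 12 h and 0.673 ± 0.0411 FPKM in controls (limma adjusted p = 0.0168). At 48 h Tet3 was at 4.01 ± 0.558 FPKM, and fell against 12 h (log2 change -1.92, limma adjusted p = 0.000641). The median log2 change of this list was -0.14 at 12 h.

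Of 20 tested genes for binding partners and signalling, 1 fell at 12 h and 0 rose, where 7.90% of all genes fell and 13.3% rose. This was Nlgn1, a synaptic adhesion protein, at 2.87 ± 0.277 FPKM at 12 h and 4.49 ± 0.484 FPKM in controls. At 48 h 3 rose and 3 fell, where 7.50% of all genes rose and 5.01% fell. Ret, a receptor kinase that clustered protocadherins bind, was at 7.99 ± 0.951 FPKM at 48 h and 1.52 ± 1.41 FPKM in controls, whereas Dab1 and the WAVE subunit Wasf1 were lower (log2 change -0.63 and -0.80, limma adjusted p = 0.00795 and 0.0226).

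Of 10 membrane proteolysis genes, whose products cut protocadherins at the surface and within the membrane, 4 fell at 12 h and 0 rose, where 7.90% of all genes fell and 13.3% rose. Adam10, which sheds the extracellular part, was at 9.71 ± 0.288 FPKM at 12 h and 14.1 ± 0.319 FPKM in controls (log2 change -0.49, limma adjusted p = 0.0171), and was at 15.2 ± 1.62 FPKM at 48 h. Psen2, a presenilin of gamma-secretase, fell by 0.46 (limma adjusted p = 0.0219).

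Of other cadherin superfamily genes, 24 of a list of 30 were tested, and at 12 h 4 rose and 4 fell, with a median log2 change of 0.09. Of all genes 13.3% rose and 7.90% fell, so the rising share is near the background. Fat4 was at 2.68 ± 0.141 FPKM at 12 h and 0.726 ± 0.209 FPKM in controls, and Cdh5 of endothelium at 10.5 ± 4.06 FPKM at 12 h and 1.85 ± 0.393 FPKM in controls. Among neuronal type II cadherins, Cdh10 and Cdh8 fell by 0.61 and 0.45 on the log2 scale (limma adjusted p = 0.0129 and 0.027). Whether the clustered protocadherins differed from these other cadherins was not tested.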

How the data were processed

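RNA of brain tissue was sequenced after a total RNA extraction, per the labels' protocols. The read-counting tool and its strand setting are not given in the sources used here. Per the submitters' processing notes, reads were aligned with Bowtie 0.12.2 and build mm8 is named, yet 98.33% of the GENCODE M21 gene IDs in the deposited table had the same start and end as on GRCm38, so coordinates are given on GRCm38. The authors deposited 1 table of FPKM values for 54532 genes in 12 libraries, with no counts. FPKM multiplied by gene length fell on whole reads in 100% of values (within 0.05 of a step), which gives the depth: 15348579 to 17444654 reads per library.

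Values were tested as log2(FPKM + 1) with limma 3.58.1 (R 4.3.3, trend) in 1 fit of 4 groups with 3 libraries each. Genes above 0.5 FPKM in at least 3 libraries were kept (17664), and p-values were Benjamini-Hochberg adjusted over all of them within each comparison, at an FDR of 0.05. The fit was tested on simulated data. SE are from this fit and SD are over libraries. Named with values were all tested single genes, the C-types, the 4 members of each cluster with the highest mean FPKM, up to 4 members per cluster and comparison past the threshold with the smallest p, and from each other list and comparison up to 2 rising and 2 falling genes past the threshold with the smallest p, of which a selection is printed; Pcdha1, Pcdha6 and other members are named besides, after their values were seen. The members and the lists were chosen with earlier results of these data known. Alternatives were another pseudocount, other filters, quantile normalization, a correction for the trend with gene length, only the groups compared, a replicate block, each library left out, and both deviating 1.5 h libraries left out. Fits without 1 library were read only for comparisons that use its group and for the test over 4 groups. Voom on the recovered reads and scaling to recovered totals were added after the data were seen. Promoter sequences are from RefSeq (GRCm38.p6). Those of members on chromosome 18, where the clusters lie, were left out, and 9 of the 70 symbols matched among the rest.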

Additional observations from a re-analysis of the deposited data

How the results depend on the processing

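Counts of protocadherins called moved between alternatives; of the named log2 changes that passed, none changed sign under any alternative run. For clustered genes at 12 h (19 called), the count was 6 with a 2 FPKM filter (12 tested), 30 with quantile normalization, 31 with only the groups compared, 31 without both 1.5 h replicates 1 and 3, and 6 to 12 when 1 library was left out. For single genes at 12 h (2 called), it was 1 with a pseudocount of 0.1, 1 with no filter, 6 with only the groups compared, 4 without both 1.5 h libraries, 4 in voom, and 1 to 2 when 1 library was left out. At 48 h against control, clustered genes (1 called) gave 2 with no filter, 0 with the 2 FPKM filter, 7 with quantile normalization, 2 with the length correction, 10 with only the groups compared, 14 without both 1.5 h libraries and 6 in voom. Single genes at 48 h (2 called) gave 1 with the 2 FPKM filter, 5 with only the groups compared, 4 without both 1.5 h libraries, and 0 to 2 when 1 library was left out. At 48 h against 12 h, clustered genes (3 called) gave 1 with no filter, 1 with the 2 FPKM filter, 7 without both 1.5 h libraries and 1 in each fit without 1 library, and single genes (1 called) 2 with only the groups compared, 4 without both 1.5 h libraries and 2 in voom. At 1.5 h (0 called), leaving out 1 library gave 0 to 30 clustered and 0 to 9 single genes, the highest without replicate 2. The test over 4 groups (16 called) gave 7 with the 2 FPKM filter, 31 with quantile normalization, 33 without both 1.5 h libraries and 7 to 39 when 1 library was left out. The share of all genes with a call moved as well. At 12 h against control it was 21.2% in the main fit, 26.1% with quantile normalization, 41.2% with only the groups compared and 21.3% in voom. At 48 h against control it was 12.5%, 15.2%, 21.5% and 13.6% in the same order. The clustered counts of 7, 10 and 6 of 49 in the last 3 of these are near that share, which pools both directions. Of all genes, 7.03%, 10.2% and 5.57% fell in these 3 fits, in that order. All 6 clustered calls in voom were falls, so their share is above the 5.57% of all genes. With scaling to recovered totals, 12.3% of all genes rose and 6.72% fell at 48 h against 12 h, where 5.88% rose and 9.73% fell in the main fit. The causes were not tested, beyond fewer genes or libraries in the fit by construction.

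Libraries of the same number shared only that number: over 11 pairs of same-numbered libraries the median correlation of deviations was -0.004 (-0.264 to 0.156). With the replicate block the clustered count was 3 at 12 h, 0 at 48 h and 0 at 48 h against 12 h, the single count 1, 0 and 0, and the count over 4 groups 1. In that fit 7.48%, 4.10% and 2.66% of all genes had a call in these comparisons, and 8.68% differed over the 4 groups.

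The planned edgeR fits were not run, since the table holds no counts, and voom on recovered reads took their place. Clustered genes have a median of 73 reads per library, and the variance between replicates was 8.73 to 308 times counting noise.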
